A study of Mus musculus with 6 samples.

Results

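Titin, nebulin, the myosin-binding protein C paralogues, the myomesins and the sarcomeric alpha-actinins were followed in mouse gastrocnemius, the large calf muscle. They are encoded by 9 genes, Ttn, Neb, Mybpc1, Mybpc2, Myom1, Myom2, Myom3, Actn2 and Actn3. These were taken by symbol, without regard to their values, and each symbol was found in every library, giving 9 of 35491 named genes. All 9 passed the filter on low values used in the tests. RNA was sequenced from 6 male mice aged 20 weeks and fed chow. The 3 Ogg1Tg mice carried human OGG1-1a, fused to a mitochondrial translocation signal and expressed from a CMV/AG promoter. The 3 Control mice were C57BL/6J, and all 6 had that strain background. The sources used here do not give the number of transgenic lines or whether Control mice were littermates. OGG1 is the enzyme that removes the oxidised base 8-oxoguanine from DNA, and the study asked what directing it to mitochondria does, here in muscle.

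The sarcomere is the contractile unit of striated muscle, bounded by Z-discs and centred on the M-band. Titin spans from the Z-disc to the M-band as a molecular spring and scaffold, and nebulin runs along the actin filament, where it helps to set filament length. Alpha-actinins cross-link actin filaments at the Z-disc, myosin-binding proteins C lie along the thick filament and tune its interaction with actin, and myomesins link thick filaments at the M-band. Several of these proteins come as paralogues that differ by fibre type. Mybpc1 encodes the slow and Mybpc2 the fast skeletal form of myosin-binding protein C, Actn3 encodes the alpha-actinin of fast glycolytic fibres and Actn2 that of all fibres, and myomesin 2 is typical of fast fibres whereas myomesin 3 is found in slower ones.

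The libraries held 45189860 to 56126407 reads in named genes. Deposited values were reads multiplied by 1 factor per library. They are given below as scaled reads or as kiloreads, which are scaled reads divided by 1000. Mouse Ogg1, which does not measure the human transgene, had 176 to 201 scaled reads in Ogg1Tg muscles and 154 to 225 in Control muscles. All 12 skeletal muscle markers passed the filter. Of 10 cardiac markers, Nkx2-5 was at 0 in every library, and the most abundant was Myh6, at 3956 to 5449 scaled reads in Ogg1Tg and 961 to 2816 in Control muscles. Ogg1Tg replicate 3 stood apart from the others. Its rank correlation with any other library was 0.946 to 0.953, against 0.975 to 0.983 among the other 5. The summed level of 14 lymphocyte and neutrophil markers was 0.453 and 0.664 kiloreads in Ogg1Tg replicates 1 and 2 and 16.7 kiloreads in Ogg1Tg replicate 3, against 3.68 to 4.26 kiloreads in Control muscles, with Ly6g at 0 in all libraries. Most of the Control sum was Ighm alone. Without Ighm the other 13 markers summed to 141, 120.4 and 10398 scaled reads in Ogg1Tg replicates 1, 2 and 3, and to 76.3, 83.9 and 99.2 in Control replicates 1, 2 and 3. The median skeletal muscle marker in Ogg1Tg replicate 3 differed from the Control mean by -0.73 on the log2 scale, and the median of 10 adipocyte markers differed by 1.98. The part of these other cells in the results below was not tested, and each result that rests on Ogg1Tg replicate 3 is given with and without it. In whole muscle, fewer fibres of a type and less RNA per fibre cannot be told apart.

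Together the 9 genes took close to the same share of reads in both genotypes. They held 19.1%, 21.2% and 18.5% of the reads in named genes in Ogg1Tg replicates 1, 2 and 3, and 19.6%, 18.8% and 17.8% in Control replicates 1, 2 and 3. Titin alone accounted for most of this. Ttn took 15.5%, 17.2% and 15.1% of reads in Ogg1Tg muscles and 15.5%, 15.2% and 14.2% in Control muscles. It was the most abundant of all named genes by reads in each of the 6 libraries, and Neb was the 4th in each. The Ttn share averaged 15.9% ± 1.08 in Ogg1Tg muscles and 15.0% ± 0.661 in Control muscles (SD, n = 3 each; two-sided exact permutation test, p = 0.4, where the smallest p that 3 mice against 3 allow is 0.1). The widest Wilson 95% interval on any of these shares was ± 0.0113 percentage points, for counting error only, so counting was not what limited the comparison.

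Read counts grow with transcript length, so levels of different genes were compared as scaled reads per kilobase (kb) of exon. Exons were merged over the transcripts that GENCODE M21 annotates on mm10. The merged exons measured 116.8 kb for Ttn (chr2:76703980-76982547, minus strand) and 26.6 kb for Neb (chr2:52136647-52378474, minus strand), but 2.90 kb for Actn3 (chr19:4861216-4877909, minus strand). Per kilobase, Actn3 and not Ttn was the highest of the 9 genes in all 6 libraries. Actn3 had 91.6, 152 and 68.7 kiloreads per kb in Ogg1Tg replicates 1, 2 and 3, against 142, 99.4 and 92.7 kiloreads in Control replicates 1, 2 and 3. Ttn had 82.7, 100.4 and 58.9 kiloreads per kb in Ogg1Tg muscles, against 95.7, 88.0 and 80.3 kiloreads in Control muscles. Ttn was second within every library, although the ranges of Actn3 and Ttn over the 6 mice overlapped.

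The other 7 genes spread over a wide range of levels per kb. Neb averaged 53.7 ± 13.9 kiloreads per kb in Ogg1Tg muscles and 64.6 ± 8.08 kiloreads in Control muscles, and Mybpc2 averaged 55.5 ± 19.7 and 62.9 ± 10.9 kiloreads in the same groups (SD, n = 3 each, here and for the levels that follow). Neb exceeded Mybpc2 in 3 of 6 libraries, so their order was not settled. Mybpc1 averaged 10.5 ± 5.19 kiloreads per kb in Ogg1Tg and 15.4 ± 4.13 kiloreads in Control muscles. All 6 values of Mybpc1 lay below all 6 values of Mybpc2, the fast paralogue. Actn2 averaged 13.6 ± 5.86 kiloreads per kb in Ogg1Tg and 13.7 ± 2.73 kiloreads in Control muscles, so it came 5th and Mybpc1 6th by the Ogg1Tg mean, and the other way round by the Control mean. Actn2 was above Mybpc1 in all 3 Ogg1Tg mice and below it in all 3 Control mice. In Control replicate 1 the values were close, at 10.64 kiloreads per kb for Actn2 and 10.66 for Mybpc1, and Actn2 was the higher there with the longest annotated transcript as the length. This order was picked out after its values were seen, and it was not tested. Myom1 had 7.73 ± 2.38 and 10.7 ± 1.17 kiloreads, and Myom2 had 7.68 ± 1.65 and 8.78 ± 1.61 kiloreads per kb, in Ogg1Tg and in Control muscles. Myom3 was the lowest, with 1.07 ± 0.313 kiloreads per kb in Ogg1Tg and 0.952 ± 0.319 kiloreads in Control muscles, below every value of Myom2. With the longest annotated transcript as the length in place of merged exons, the 5th to 7th places in Control muscles went to Myom1, Mybpc1 and Actn2.

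**Figure D1:**
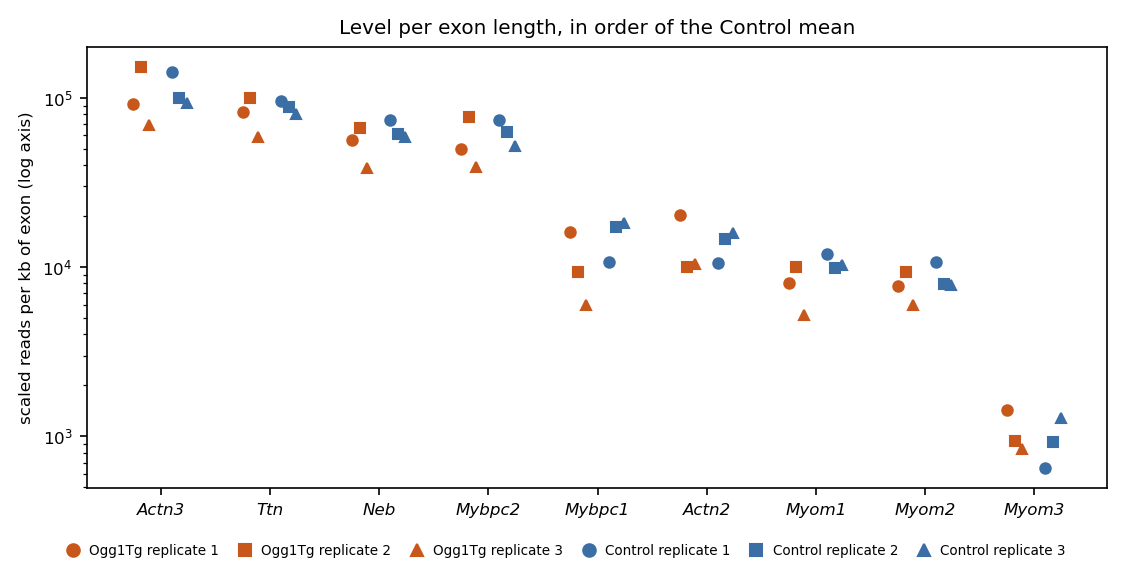
Scaled reads per kb of merged exon (log axis) for the 9 genes, in the order of their Control means; each point is 1 mouse, with Ogg1Tg left of Control. Actn3, Ttn, Neb and Mybpc2 form the upper set, and Myom3 lies below every other gene, at 0.648 to 1.43 kiloreads per kb.

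None of the 9 genes changed between Ogg1Tg and Control muscles by the test used. limma with Benjamini-Hochberg adjustment over 23312 genes called 0 of 9 at an adjusted p under 0.05, where 0.545% of all genes tested were called, 0.395% as higher and 0.150% as lower. At an unadjusted p under 0.05, limma found 0 of 9, against 11.0% of all genes, and edgeR and DESeq2 on recovered reads each called 0 of 9, against 0.532% and 2.67% of all genes. Without Ogg1Tg replicate 3, limma called 0 of 9 against 1.86% of all genes, and edgeR 0 of 9 against 1.76%. On shares of named reads limma called 0 of 9 against 0.408% of all genes, and without its variance trend 0 of 9 against 0.197%. The values of Ogg1Tg and Control mice overlapped for all 9 genes, where the groups did not overlap for 18.3% of all genes (7.03% higher and 11.3% lower). Fold changes below are Ogg1Tg over Control on the log2(value + 1) scale. A test that missed its threshold does not show equal levels, so the 95% interval is given for each gene.

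**Figure D2:**
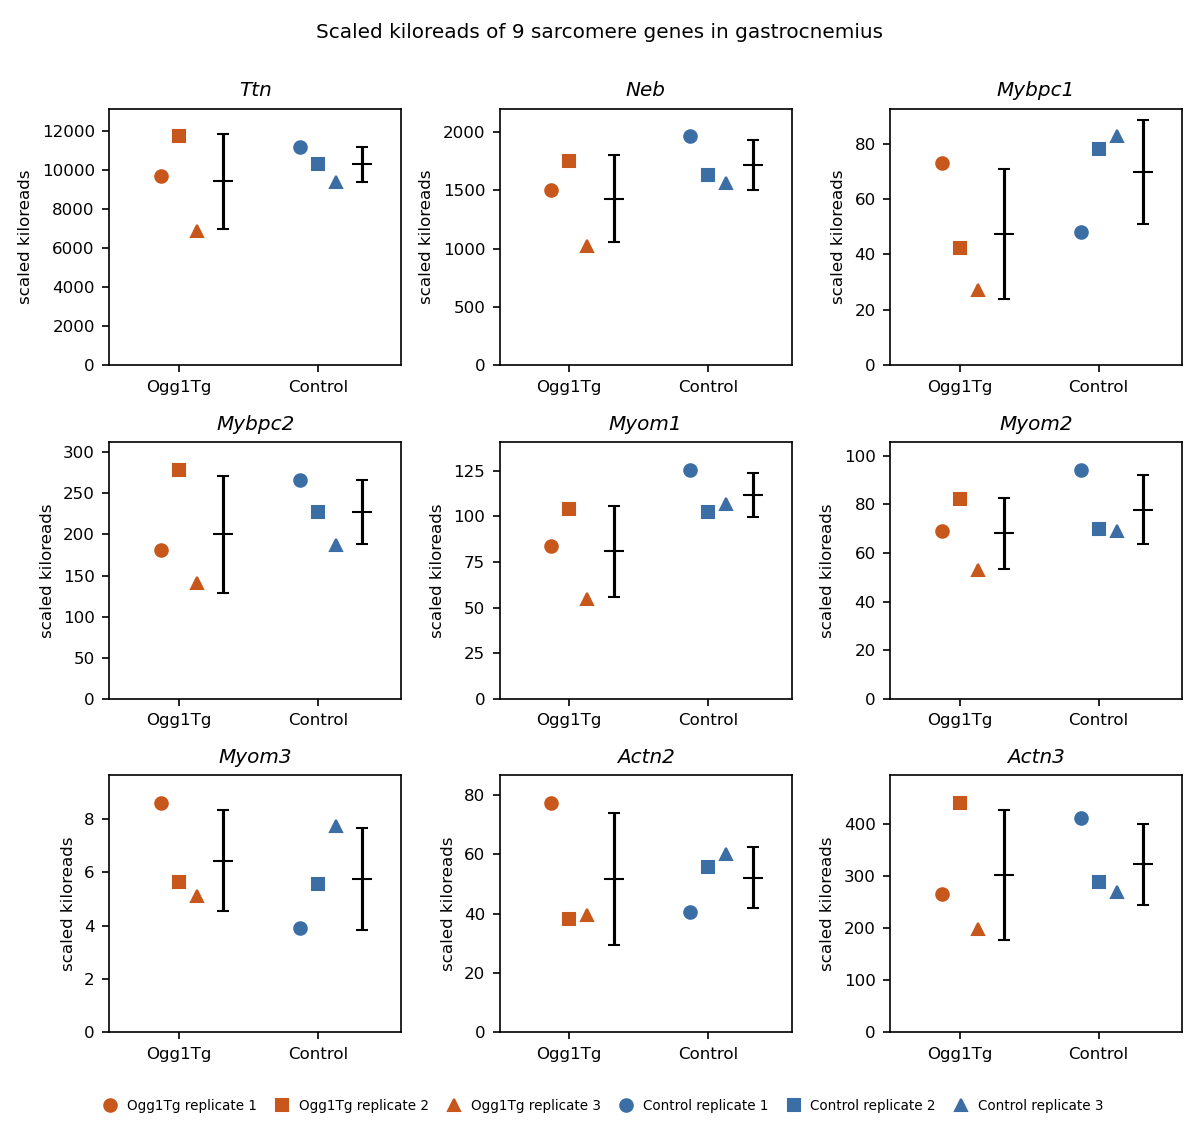
Scaled kiloreads of the 9 genes in each mouse, Ogg1Tg left and Control right in each panel, with mean and SD (n = 3 each). The groups overlap in every panel. On this deposited scale Ogg1Tg replicate 3 is the lowest of the 6 mice for Ttn, Neb, Mybpc1, Mybpc2, Myom1, Myom2 and Actn3.

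Ttn, which encodes titin, had 9663, 11724 and 6883 kiloreads in Ogg1Tg replicates 1, 2 and 3, and 11176, 10282 and 9382 kiloreads in Control replicates 1, 2 and 3. The highest and the lowest value both came from Ogg1Tg mice, and the Control values lay between them. The log2 fold change was -0.16, with limma adjusted p = 0.986. The variance trend of limma assigned Ttn a prior SD of 3.71 where its own residual SD was 0.289 (log2 scale), so the interval was taken from the fit without the trend, at -0.75 to 0.44, with limma adjusted p = 0.840. Ttn has 25 annotated transcripts, and 1 value per gene does not separate its isoforms.

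Neb, which encodes nebulin, had 1503, 1753 and 1024 kiloreads in Ogg1Tg muscles and 1963, 1631 and 1561 kiloreads in Control muscles. Ogg1Tg replicates 1 and 3 lay below all Control mice and Ogg1Tg replicate 2 lay among them. Its log2 fold change was -0.30, with a 95% interval of -0.92 to 0.32 and limma adjusted p = 0.718 without the variance trend. With the trend the limma adjusted p was 0.918, from a prior SD of 1.35 where the residual SD of Neb was 0.309. Other long transcripts are given beside Ttn and Neb, and the part of RNA quality was not tested. The 1465 tested genes with 10 kb or more of exon had medians of -0.10, -0.05 and -0.11 in Ogg1Tg replicates 1, 2 and 3, as log2 differences from the Control mean. In Ogg1Tg replicate 3, Ttn differed from the Control mean by -0.58 and Neb by -0.74 on that scale, beside a median of -0.69 for the 539 genes with a mean of at least 10000 scaled reads.

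Among the myosin-binding proteins C, the slow form Mybpc1 (chr10:88518279-88605152, minus strand) varied most of the 9 genes between mice, by 3.06-fold from the lowest to the highest. It had 73.2, 42.2 and 27.0 kiloreads in Ogg1Tg replicates 1, 2 and 3, and 48.2, 78.0 and 82.7 kiloreads in Control replicates 1, 2 and 3. Ogg1Tg replicates 2 and 3 were the lowest, Control replicate 1 came next, and the others were high. Its mean was 47.5 ± 23.5 kiloreads in Ogg1Tg and 69.7 ± 18.7 kiloreads in Control muscles (SD, n = 3 each), a log2 fold change of -0.63 ± 0.37 (SE; 95% interval -1.48 to 0.21; limma adjusted p = 0.579). The estimate was -0.29 without Ogg1Tg replicate 3 and -1.005 without Ogg1Tg replicate 1 (limma unadjusted p = 0.0173 and adjusted p = 0.363). Mybpc2, the fast form (chr7:44501699-44524656, minus strand), had 181, 279 and 141 kiloreads in Ogg1Tg muscles and 266, 228 and 188 kiloreads in Control muscles. The highest value and both of the lowest belonged to Ogg1Tg mice. Mybpc2 stood at a log2 fold change of -0.23 ± 0.38 (SE; 95% interval -1.08 to 0.63; limma adjusted p = 0.850).

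None of the myomesins passed the test. Myom1 (chr17:71002633-71126856, plus strand), whose product bridges thick filaments in all striated muscle, had 84.0, 104 and 54.6 kiloreads in Ogg1Tg replicates 1, 2 and 3, and 126, 103 and 107 kiloreads in Control replicates 1, 2 and 3. Ogg1Tg replicates 1 and 3 were below every Control mouse, and Ogg1Tg replicate 2 exceeded Control replicate 2 by a small margin. On the log2 scale the fold change was -0.51 ± 0.29 (SE; 95% interval -1.18 to 0.15; limma unadjusted p = 0.117 and adjusted p = 0.570), the smallest unadjusted p of the 9 genes. Without Ogg1Tg replicate 3 it was -0.25. The exons of Myom1 share 207 bp, 1.98% of their length, with Myl12a on the opposite strand, a myosin light chain gene with 6.81 to 9.74 kiloreads in Ogg1Tg and 5.38 to 7.25 kiloreads in Control muscles. The sources used here do not say whether counting used strand, so reads of that stretch cannot be assigned to either gene.

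Myom2 (chr8:15057653-15133541, plus strand), the fast-fibre myomesin, had 68.8, 82.2 and 53.0 kiloreads in Ogg1Tg muscles and 94.3, 70.0 and 69.1 kiloreads in Control muscles. Ogg1Tg replicate 3 was the lowest, and Ogg1Tg replicate 1 lay just below the Control mice. Myom2 stood at a log2 fold change of -0.20 ± 0.26 (SE; 95% interval -0.78 to 0.38; limma adjusted p = 0.796). Myom3 (chr4:135759715-135815564, plus strand) had 8.61, 5.63 and 5.10 kiloreads in Ogg1Tg muscles and 3.91, 5.58 and 7.75 kiloreads in Control muscles. It was the only one of the 9 genes with a positive estimate, 0.18 ± 0.27 (SE; 95% interval -0.43 to 0.79; limma adjusted p = 0.829), and that sign turned without Ogg1Tg replicate 1 or without Control replicate 1.

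At the Z-disc, Actn2 (chr13:12269426-12340760, minus strand) had 77.2, 38.1 and 39.4 kiloreads in Ogg1Tg replicates 1, 2 and 3, and 40.4, 55.8 and 60.0 kiloreads in Control replicates 1, 2 and 3. Ogg1Tg replicate 1 was the highest and the other Ogg1Tg mice the lowest, close to Control replicate 1. The means were 51.6 ± 22.2 kiloreads in Ogg1Tg and 52.1 ± 10.4 kiloreads in Control muscles (SD, n = 3 each), and the log2 fold change was -0.07 ± 0.31 (SE; 95% interval -0.77 to 0.62; limma adjusted p = 0.948). Actn3 had 266, 441 and 199 kiloreads in Ogg1Tg muscles and 411, 288 and 269 kiloreads in Control muscles. Here Ogg1Tg replicate 2 and Control replicate 1 were high, although both were low for Actn2. In scaled reads Ogg1Tg replicate 3 was low for both genes. The log2 fold change of Actn3 was -0.15 ± 0.45 (SE; 95% interval -1.16 to 0.86; limma adjusted p = 0.922).

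The sign of several of these estimates turned with the scaling or with 1 library left out. On the deposited scale 8 of 9 log2 fold changes were below 0, with a median of -0.20, beside 52.8% of all genes tested and a median of -0.02 over them. Abundant genes leaned the same way, since 86.5% of the 539 genes with a mean of at least 10000 scaled reads were below 0, with a median of -0.29. Without Ogg1Tg replicate 3, 5 of 9 were below 0, and the signs of Ttn, Actn2 and Actn3 turned. The estimates were then 0.054 for Ttn, -0.075 for Neb, -0.0013 for Mybpc2, -0.032 for Myom2, 0.33 for Myom3, 0.080 for Actn2 and 0.11 for Actn3. Without Ogg1Tg replicate 2 they were -0.33 for Ttn, -0.46 for Neb, -0.49 for Mybpc2, -0.72 for Myom1, -0.35 for Myom2 and -0.46 for Actn3, the lowest for these genes with any 1 library left out. As a share of named reads, a scale that moved the median of all genes to 0.095, 3 of 9 were below 0, namely Neb, Mybpc1 and Myom1. Under quantile normalization only Mybpc1 (-0.38) and Myom1 (-0.21) were below 0. It set Ttn and Neb to 0, since each had the same rank in all 6 libraries.

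**Figure D3:**
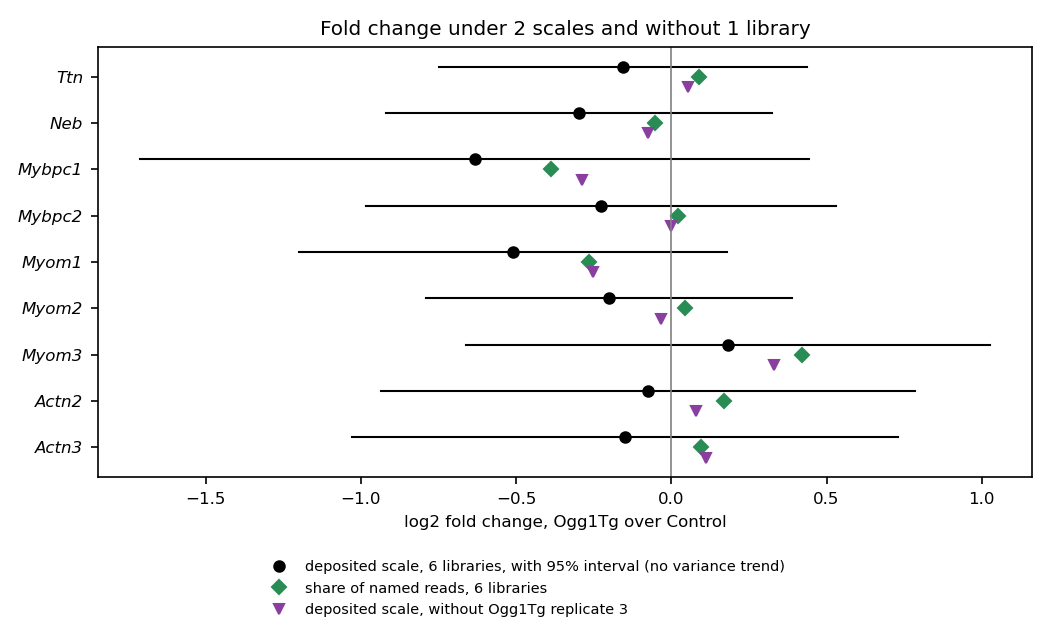
Log2 fold change of each gene, Ogg1Tg over Control, on the deposited scale with its 95% interval from limma without the variance trend (circles), as a share of named reads (diamonds) and without Ogg1Tg replicate 3 (triangles). Every interval spans 0, and the estimates without that library move toward or past 0 for all genes but Myom3, which goes to 0.33.

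The mice also differed from each other along a line that crossed genotype. In Ogg1Tg replicate 2 and Control replicate 1, 1 mouse of each genotype, the fast-fibre genes Mybpc2 and Actn3 were high while Mybpc1 and Actn2 were below the Control mean. In scaled reads Ttn, Neb and Myom2 were also higher in these mice than in any other, so high values there were not limited to fast-fibre genes. This grouping of mice was picked out after its values were seen, and it was not tested. Mybpc2 differed from the Control mean by 0.31 in Ogg1Tg replicate 2 and by 0.24 in Control replicate 1 on the log2 scale, and Actn3 by 0.47 and 0.37 in these mice. Mybpc1 differed by -0.68 and -0.49 in the same mice, and Actn2 by -0.43 and -0.35. Myom3 followed in Control replicate 1, at -0.50, but was near the Control mean in Ogg1Tg replicate 2, at 0.03. The opposite arrangement, with Actn2 and Myom3 high and Mybpc2 and Actn3 low, was found in Ogg1Tg replicate 1 and Control replicate 3. On the deposited scale Ogg1Tg replicate 3 followed neither, since all 9 genes were below the Control mean there. Its scaled total over named genes was 4.55e+07, against 6.23e+07 to 7.22e+07 in the other libraries. As a share of named reads it was above the Control mean for Ttn (15.14% against 14.96%), Myom2, Myom3 and Actn2 (0.0866% against 0.0764%). By that measure it was below the Control mean for Neb, Mybpc1, Mybpc2, Myom1 and Actn3.

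The same mice stood apart for the myosin heavy chains, the motor proteins that define fibre types. As a share of 4 adult heavy chains per kb of exon, Myh4, the chain of the fastest fibres, made up 78.3%, 91.2% and 85.0% in Ogg1Tg replicates 1, 2 and 3, and 90.4%, 83.4% and 82.0% in Control replicates 1, 2 and 3. Its share was highest in Ogg1Tg replicate 2 and Control replicate 1, the mice with high Actn3 and Mybpc2. Myh2 had 407, 200 and 207 kiloreads in Ogg1Tg replicates 1, 2 and 3, and 265, 400 and 415 kiloreads in Control replicates 1, 2 and 3. Myh1 had 545, 273 and 227 kiloreads in Ogg1Tg muscles and 371, 500 and 454 kiloreads in Control muscles. Both were highest in Ogg1Tg replicate 1 and Control replicates 2 and 3, as were Mybpc1 and Actn2. Myh7, the slow chain, behaved otherwise, with 57.6, 79.5 and 50.9 kiloreads in Ogg1Tg muscles and 10.6, 35.6 and 35.6 kiloreads in Control muscles. All Ogg1Tg mice exceeded all Control mice for Myh7, while Mybpc1 was lower in 2 of the 3 Ogg1Tg mice than in any Control mouse. The log2 fold change of Myh7 was 1.37 ± 0.44 (SE), which missed the threshold in limma (adjusted p = 0.300) and was called higher by DESeq2.

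**Figure D4:**
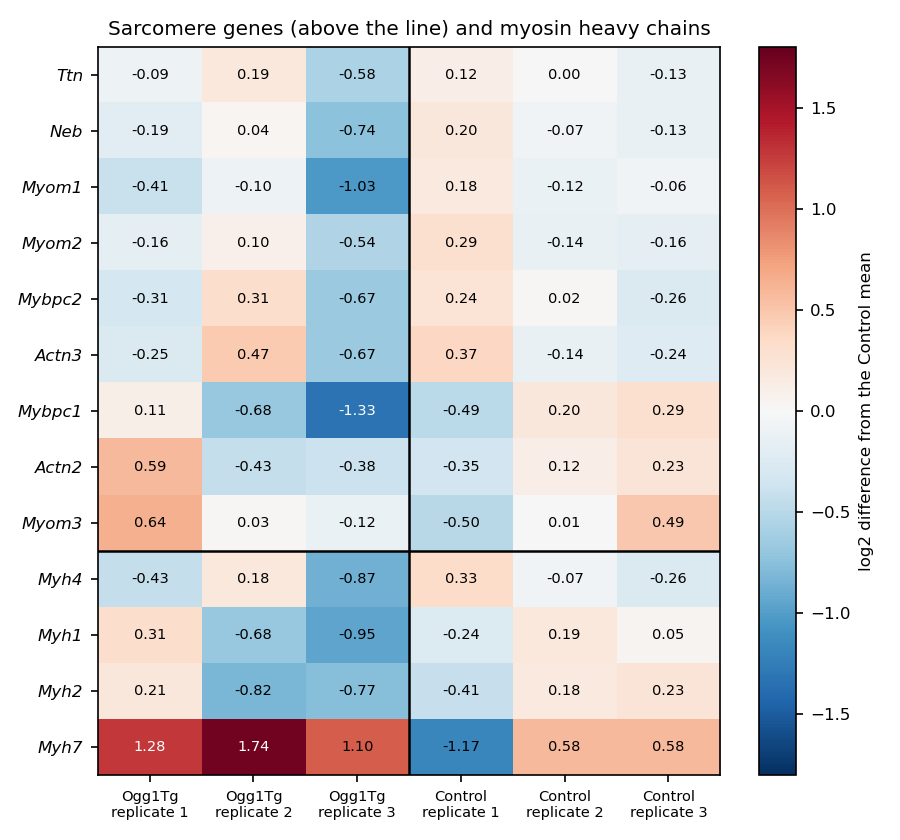
Log2 difference of each mouse from the Control mean for the 9 genes and, below the line, 4 myosin heavy chains, with Ogg1Tg left of Control; red is higher and blue lower. Mybpc2 and Actn3 are alike over mice. Mybpc1 and Actn2 are both below the Control mean in Ogg1Tg replicates 2 and 3 and Control replicate 1, but by different amounts. Myh7 is above 1 in all Ogg1Tg mice.

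Promoter sequences are shown for genes that went opposite ways between mice, since Mybpc1, Actn2 and Myom3 were lower in Control replicate 1 than in Control replicates 2 and 3, while Mybpc2 was higher. Each sequence is the 250 bases before the transcript start, from RefSeq on GRCm38.p6, 5′ to 3′ on the strand of the gene. Capitals mark E-boxes (CANNTG), the motif class bound by myogenic basic helix-loop-helix factors. RefSeq promoters were matched for 6 of the 9 genes, which also include Ttn and Myom1.
Mybpc1 (chr10:88605153-88605402, minus strand): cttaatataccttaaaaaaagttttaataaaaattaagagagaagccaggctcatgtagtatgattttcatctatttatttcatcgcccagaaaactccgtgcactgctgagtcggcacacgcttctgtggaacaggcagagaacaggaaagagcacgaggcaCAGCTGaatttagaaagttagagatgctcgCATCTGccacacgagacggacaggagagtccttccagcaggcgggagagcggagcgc
Actn2 (chr13:12340733-12340982, minus strand): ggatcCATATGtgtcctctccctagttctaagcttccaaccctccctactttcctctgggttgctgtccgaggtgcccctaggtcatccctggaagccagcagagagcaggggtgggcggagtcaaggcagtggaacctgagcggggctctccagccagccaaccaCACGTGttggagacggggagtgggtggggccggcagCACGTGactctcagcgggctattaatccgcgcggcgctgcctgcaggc
Myom3 (chr4:135759465-135759714, plus strand): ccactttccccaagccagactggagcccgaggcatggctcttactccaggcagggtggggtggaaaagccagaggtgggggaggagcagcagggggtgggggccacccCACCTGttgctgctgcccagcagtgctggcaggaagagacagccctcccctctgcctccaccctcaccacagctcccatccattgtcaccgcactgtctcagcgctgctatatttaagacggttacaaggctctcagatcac
Mybpc2 (chr7:44524670-44524919, minus strand): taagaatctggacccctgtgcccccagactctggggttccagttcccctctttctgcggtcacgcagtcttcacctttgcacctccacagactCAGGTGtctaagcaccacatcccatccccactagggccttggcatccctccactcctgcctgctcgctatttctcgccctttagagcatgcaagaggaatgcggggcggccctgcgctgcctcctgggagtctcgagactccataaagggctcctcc

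E-boxes were counted on both strands, and the motif is its own reverse complement in this form. At least 1 E-box was found in 66.2% of 32841 RefSeq promoter windows of the same length, so its presence in all 4 is no distinction. Mybpc1 had 2, Actn2 had 3, and Myom3 and Mybpc2 had 1 each. In Actn2, 2 of the 3 read CACGTG, at 84 to 79 and at 48 to 43 bases before the start. Mybpc2 also held an MCAT element, CATTCC on the strand opposite to the one printed, 62 to 57 bases before the start, which 12.6% of windows hold. Myom3 held a MEF2 motif 35 to 26 bases before the start, which 2.92% of windows hold, and no MCAT element. A match describes these letters and shows no binding.

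The likeness of profiles over mice was measured as a distance. The root mean square distance of 2 genes over the 6 libraries, on log2 values centred on each gene's mean, was 0.0847 for Ttn and Neb, 0.0873 for Neb and Myom2, and 0.103 for Mybpc2 and Actn3. Actn2 was 0.218 from Myom3 and 0.352 from Mybpc1. The farthest pair was Mybpc1 and Actn3, at 0.670, and the paralogue pair Actn2 and Actn3 was at 0.633. Over 11462 named genes with a mean of at least 100 scaled reads, the nearest to each of the 9 genes were Ldb3 for Ttn at 0.0228, Dusp3 for Neb at 0.0177, Tmod4 for Myom1 at 0.0239 and Sra1 for Myom2 at 0.0256. For the other 5 genes the nearest were farther away, with Plcd4 for Mybpc2 at 0.0651, Ube2c for Actn3 at 0.0845, Fez1 for Actn2 at 0.0594, Kcnn2 for Myom3 at 0.0811 and Hspa1a for Mybpc1 at 0.123. The second nearest were Vps4a, Anxa11, Rbfox1, Lvrn, Ccdc50, Fbxl16, Nnt, Dio2 and Fndc5 for the same genes in that order. These distances describe 6 libraries of 1 tissue, made from scaled reads, and they include the low values of Ogg1Tg replicate 3.

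Ratios of paralogues within a library do not depend on the library factor. Per kb, Mybpc1 to Mybpc2 was 0.322, 0.121 and 0.153 in Ogg1Tg replicates 1, 2 and 3, and 0.144, 0.273 and 0.352 in Control replicates 1, 2 and 3. Actn2 to Actn3 was 0.222, 0.0661 and 0.151 in Ogg1Tg muscles and 0.0751, 0.148 and 0.171 in Control muscles. Myom3 to Myom2 was 0.183, 0.1004 and 0.141 in Ogg1Tg muscles and 0.0609, 0.117 and 0.165 in Control muscles. All of these ratios were low in Ogg1Tg replicate 2 and Control replicate 1, and the groups overlapped in each (two-sided exact permutation p = 0.5, 0.9 and 0.6 for Mybpc1 to Mybpc2, Actn2 to Actn3 and Myom3 to Myom2, n = 3 each). They varied 2.92-fold, 3.36-fold and 3.01-fold between the lowest and the highest mouse.

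For 2 of the 5 ratios the groups did not overlap. The share over ratios of other gene pairs was not computed, so this count has no background. For single genes, a different measure, the groups did not overlap for 18.3%. Myom1 to Myom2 was 1.03, 1.07 and 0.872 in Ogg1Tg replicates 1, 2 and 3, and 1.13, 1.24 and 1.31 in Control replicates 1, 2 and 3. Every Ogg1Tg mouse had less Myom1 per Myom2 than every Control mouse, with a log2 difference of -0.31 for Ogg1Tg minus Control (two-sided exact permutation p = 0.1, the smallest that 3 against 3 allow; 0.25 after Benjamini-Hochberg adjustment over the 5 ratios). Ttn to Neb was 1.46, 1.52 and 1.53 in Ogg1Tg muscles and 1.30, 1.43 and 1.37 in Control muscles. Every Ogg1Tg mouse had more Ttn per Neb than every Control mouse, with a log2 difference of 0.14 (two-sided exact permutation p = 0.1, adjusted 0.25). With 1 mouse left out the log2 differences were -0.37 to -0.22 for Myom1 to Myom2 and 0.10 to 0.18 for Ttn to Neb, where groups that do not overlap fix the sign. Neither passed a threshold of 0.05, which this design cannot reach.

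**Figure D5:**
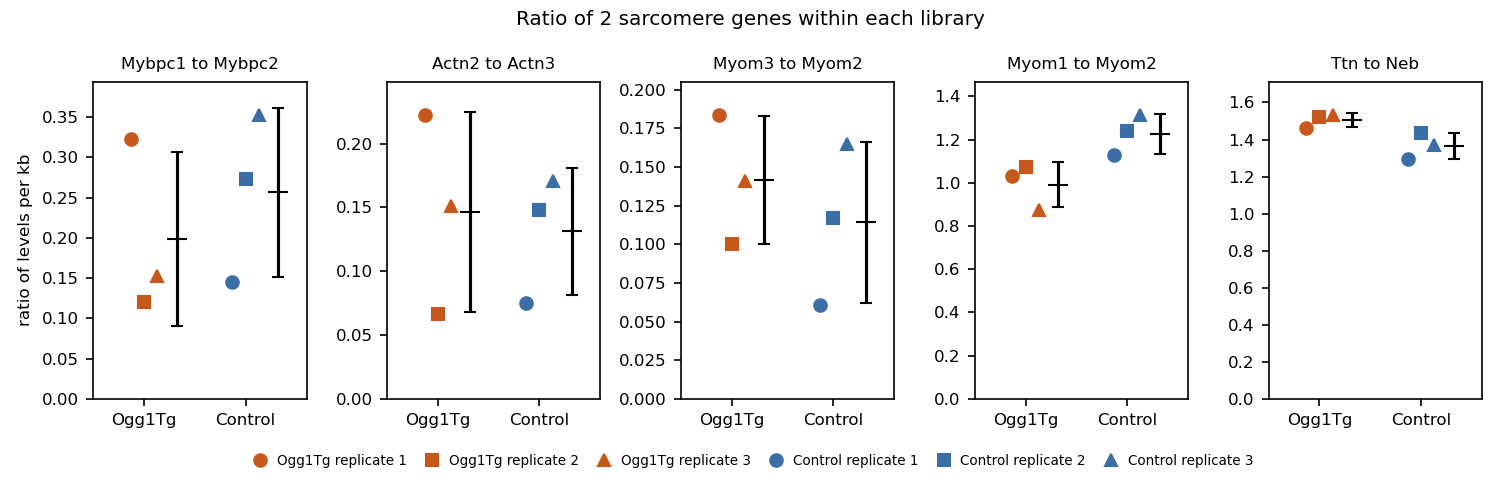
Ratio of the levels per kb of 2 genes within each library, Ogg1Tg left and Control right in each panel, with mean and SD (n = 3 each). The first 3 ratios overlap between genotypes and are low in Ogg1Tg replicate 2 and Control replicate 1, whereas all Ogg1Tg mice lie below all Control mice for Myom1 to Myom2 and above them for Ttn to Neb.

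Partners of these proteins are read against the 0.545% of all genes that limma called and the 11.0% with an unadjusted p under 0.05. The shares of all genes called were 0.532% with edgeR, 2.67% with DESeq2 and 1.86% with limma without Ogg1Tg replicate 3. Of 11 genes of the same families, limma called 1, with 2 at an unadjusted p under 0.05. The called gene was Igfn1, which encodes an immunoglobulin and fibronectin domain protein of the Z-disc region. Igfn1 had 245, 157 and 144 scaled reads in Ogg1Tg replicates 1, 2 and 3, and 1098, 2396 and 830.1 in Control replicates 1, 2 and 3. All Ogg1Tg mice were below all Control mice, and the log2 fold change was -2.87 ± 0.37 (SE; limma adjusted p = 0.0121). That call was lost without the variance trend, on shares of named reads and without Control replicate 1, and held without Ogg1Tg replicate 3. On recovered reads edgeR and DESeq2 also called Igfn1 lower. The list's median was -0.02, as over all genes. Mybph, which encodes myosin-binding protein H, had 2439, 4645 and 4064 scaled reads in Ogg1Tg muscles and 1546, 1565 and 894 in Control muscles. It missed the threshold in limma (adjusted p = 0.0765) but was called higher by DESeq2 and by limma without Ogg1Tg replicate 3.

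Of 19 partners of the titin kinase, the M-band and the N2A region of titin, limma called 1, with 4 at an unadjusted p under 0.05. The called gene was Ankrd1, which encodes a stretch-responsive ankyrin repeat protein that binds titin at N2A. Ankrd1 had 2238, 1065 and 3296 scaled reads in Ogg1Tg replicates 1, 2 and 3, and 309, 227 and 337 in Control replicates 1, 2 and 3. Every Ogg1Tg mouse exceeded every Control mouse, and the log2 fold change was 2.79 ± 0.36 (SE; limma adjusted p = 0.0121), with a list median of -0.21. That call was lost without the variance trend, on shares of named reads, without any 1 of the Control mice and without Ogg1Tg replicate 1. It held without Ogg1Tg replicate 3, and edgeR and DESeq2 on recovered reads also called Ankrd1 higher.

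Of 19 Z-disc partners limma called 0, with 5 at an unadjusted p under 0.05 and a median of -0.20. The most abundant were Xirp2, an actin-binding repeat protein, at -0.11 ± 0.36, and Des, which encodes the intermediate filament desmin, at -0.22 ± 0.30 (log2 fold change ± SE; limma adjusted p = 0.930 and 0.805). DESeq2, and limma without Ogg1Tg replicate 3, called 1 of these partners, Flnc, and edgeR called 0. Flnc encodes filamin C, an actin cross-linker at the Z-disc, and had 146151, 105122 and 88003 scaled reads in Ogg1Tg muscles and 65132, 59445 and 65925 in Control muscles. All Ogg1Tg mice were above all Control mice, with limma adjusted p = 0.300. Of the 19 partners, 1 was higher without overlap and 5 were lower, beside 7.03% and 11.3% of all genes. By sign of the estimate, 15 of the 19 were below 0 and 4 above. Below 0 were also 52.8% of all genes tested and 86.5% of the 539 genes with a mean of at least 10000 scaled reads. Flnc was chosen for its values after they were seen.

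Of 14 genes for the thin filament and nebulin stability, limma, edgeR and DESeq2 called 0, with 2 at an unadjusted p under 0.05 in limma and a median of -0.30. Acta1, skeletal alpha-actin, stood at -0.25 ± 0.54, and Klhl41, a partner that stabilises nebulin, at -0.29 ± 0.20 (log2 fold change ± SE; limma adjusted p = 0.889 and 0.630). Of 22 regulators of titin splicing and of muscle transcription, limma and edgeR called 0, with 7 at an unadjusted p under 0.05 in limma and a median of -0.41. Mef2c, a transcription factor of striated muscle, stood at -0.44 ± 0.21, and Mbnl1, a splicing regulator, at -0.32 ± 0.21 (log2 fold change ± SE; limma adjusted p = 0.493 and 0.612). DESeq2 called 2 of the 22, among them Prox1, beside 2.67% of all genes. Prox1, a homeobox factor of slow fibres, was called higher, with 488, 669 and 734 scaled reads in Ogg1Tg muscles and 298, 354 and 388 in Control muscles. All Ogg1Tg mice were above all Control mice for Prox1. Of the 22 regulators, 1 was higher without overlap and 6 were lower, beside 7.03% and 11.3% of all genes. Their median log2 difference from the Control mean was -0.19, -0.08 and -0.79 in Ogg1Tg replicates 1, 2 and 3. In the same mice it was -0.10, -0.10 and -0.74 for the thin filament list and -0.10, 0.02 and -0.67 for the Z-disc partners. For the titin kinase, M-band and N2A partners it was -0.02, 0.07 and -0.62.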

How the data were processed

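Per the labels' protocols, gastrocnemius RNA of 3 Ogg1Tg and 3 Control mice was column-purified and prepared with NuGen Ovation Universal. Trimmomatic, SAMtools, HTSeq and mm10 appear, without versions, in the submitters' processing notes. The sources used here name no aligner, annotation or strand setting. The deposited values are a signal that the file names call FPKM, but each was a whole multiple of 1 step per library, within 0.01 of a read for 100% of values, so the authors' values are gene counts multiplied by 1 factor per library. The test written for normalized values was kept. Entries without a gene name, 1824 of 37315, took 2.38% to 3.54% of reads and stayed out of all tests.

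The model was fitted to log2(value + 1), a scale on which changes of low genes come out too small. R 4.3.3 with limma 3.58.1 tested the 23312 genes with a mean of at least 1 (variance trend, two-sided, Benjamini-Hochberg adjustment, called at an adjusted p under 0.05). edgeR 4.0.16 and DESeq2 1.42.0 were run on recovered reads. For ratios and shares, exact permutation tests over mice were used, two-sided. The fit was tested on simulated data with known changes. Libraries of every pair differed by more than sampling noise, with a chi-square per gene of at least 12.9. P-values reflect the spread between these 6 mice, combined in limma with a prior variance drawn from other genes. With the trend, that prior SD exceeded the residual SD most for Ttn and Neb. It fell below the residual SD for Mybpc1 (0.302 against 0.591), Myom3 (0.182 against 0.449) and Actn2 (0.293 against 0.460). Shared litters or days are not mentioned in the labels.

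The 9 genes, the gene lists and the tests were chosen with earlier results of these data known. All 9 genes are named; from each list of partners the called genes, or with none called the 2 with the highest mean; the 4 adult myosin heavy chains, Ogg1 and Acta1; and for each of the 9 genes the 2 nearest by distance, leaving out predicted and pseudogene names. Mybph, Flnc, Prox1 and Myl12a fall outside this rule and were picked with their values in view. One further gene is not reported here. Alternatives were quantile normalization, rescaling by median-of-ratios factors, a pseudocount of 0.1, a minimum mean of 5 or none, limma without the trend or with replicate number as a block, and leaving out single libraries. Shares of named reads, edgeR without Ogg1Tg replicate 3 and the longest transcript as length were added after the data were seen.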

Additional observations from a re-analysis of the deposited data

How the results depend on the processing

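The 9 genes stayed uncalled under all 17 alternatives to the limma fit, with adjusted p-values of at least 0.341. Quantile normalization could not test Ttn and Neb. Each held the same rank in all 6 libraries, which fixes its fold change at 0 in advance. Mybpc1 and Myom1 were below 0 in each, and Neb was at or below 0. The Ttn log2 fold change was 0.090 as a share of named reads, 0.10 with edgeR without Ogg1Tg replicate 3, and -0.33 to 0.054 with 1 library left out. Quantile normalization gave 0.063 for Mybpc2, 0.099 for Myom2, 0.16 for Actn2 and 0.15 for Actn3. Shares of named reads gave 0.020, 0.045, 0.17 and 0.096 for the same 4 genes, and edgeR without Ogg1Tg replicate 3 gave 0.060, 0.0025, 0.20 and 0.17. Actn2 was at 0.061 with edgeR and 0.039 with DESeq2 on all libraries. With 1 library left out, Actn2 lay between -0.41 and 0.10, Actn3 between -0.46 and 0.11, and Myom3 between -0.068 and 0.43. The log2 ratio of Actn2 to Actn3 lay between -0.31 and 0.57 and that of Myom3 to Myom2 between -0.013 and 0.70, and that of Mybpc1 to Mybpc2 between -0.82 and -0.11. The genes below 0 numbered 3 on shares of named reads, 3 with edgeR without Ogg1Tg replicate 3, and 5 to 9 with 1 library left out. Under quantile normalization they were Mybpc1 and Myom1.

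Over all genes limma called 127, against 46 without the variance trend, 622 with DESeq2, 402 with edgeR without Ogg1Tg replicate 3, and 35 to 425 with 1 library left out, the highest being without Ogg1Tg replicate 3. Of the family genes, 0 were called without the trend and on shares of named reads, 2 with DESeq2 and with edgeR without Ogg1Tg replicate 3, and 0 to 2 with 1 library left out. Of the Z-disc partners, 1 was called under quantile normalization, with DESeq2 and with edgeR without Ogg1Tg replicate 3, and 0 to 1 with 1 library left out. Of the titin kinase, M-band and N2A partners, 0 were called without the trend and on shares of named reads, and 0 to 1 with 1 library left out. Of the splicing and transcription regulators, 2 were called with DESeq2, 1 with edgeR without Ogg1Tg replicate 3, and 0 to 1 with 1 library left out. With the longest transcript as length, Mybpc1 was 6th, Myom1 5th and Actn2 7th of the 9 genes in Control muscles. The causes were not tested.

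Deviations of same-numbered mice from their group means correlated at -0.05, -0.01 and 0.03. These values gave no sign of pairing by replicate number, but they cannot exclude shared litters or days. With the number as a replicate block, 102 genes and 0 of the 9 were called. With 3 mice a group the limma intervals without the variance trend reached as far as -1.71 for Mybpc1 and 1.02 for Myom3, while counting error was small at these depths. With the trend they ran from -5.26 to 4.95 for Ttn. With a library left out, its group rests on 2 mice.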
